A study of Rattus norvegicus with 8 samples.

Results

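The miRNAs described here come from 2 neighbouring imprinted genes of the rat, Igf2 and H19. They were taken as every miRNA on the array whose name begins with rno-miR-483- or rno-miR-675-, which gave 4 (0.528%) of the rat miRNAs measured: rno-miR-483-3p, rno-miR-483-5p, rno-miR-675-3p and rno-miR-675-5p, written without the species prefix below. They were selected on their locus, but with their probe totals, detection calls and spot signals on these same sham and TULP arrays already known. Each difference below is therefore a description, and no p-value is given for it.

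Tissue of the prostatic urethra was taken from male Sprague Dawley (SD) rats aged 10 to 12 months, 5 days after surgery. In the TULP group (n = 4), a thulium laser had vaporized the urothelium of the prostatic urethra to simulate a transurethral laser prostatectomy. In the sham group (n = 4), the abdomen was opened at the midline and no laser was used. The labels name no engineered allele or other agent, the rats were normal animals without prostate disease, and the prostatectomy was simulated, which limits the model. The labels of the TULP samples conflict: their title, tissue and treatment name trauma tissue, and their description names sham surgery. The groups below rest on the titles.

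A miRNA is cut from a hairpin precursor, and either arm of the hairpin, 5p or 3p, can be loaded onto an Argonaute protein that it guides to messenger RNAs through its seed, bases 2 to 8. Igf2, a fetal growth factor, is transcribed mainly from the paternal chromosome, and H19, a long noncoding RNA, mainly from the maternal one. Both are abundant in fetal tissue and placenta and fall in most tissues after birth. The miR-483 hairpin lies in an intron of Igf2 and the miR-675 hairpin in an exon of H19, and miR-675 has been linked to restraint of placental growth.

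In RefSeq, build GRCr8, Mir483 is at chr1:207247859-207247931 on the minus strand, inside Igf2 (chr1:207243873-207261263), and Mir675 is at chr1:207161752-207161835 on the minus strand, inside H19 (chr1:207160175-207162851). The hairpins lie 86024 bases apart. All 4 mature sequences were found in RefSeq. They are shown because the seed and the stretch that each probe covers set what the array could measure, and capitals mark the seed:
miR-483-3p: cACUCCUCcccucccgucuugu
miR-483-5p: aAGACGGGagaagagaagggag
miR-675-3p: uGUAUGCCcuaaccgcucagu
miR-675-5p: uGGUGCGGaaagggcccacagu

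The 4 seeds differed from each other, and none was shared with another rat miRNA of the RefSeq table, which held 685 of the array's names. The precursors are printed below with the 5p arm, then the 3p arm, in capitals, to show how the arms face each other:
Mir483: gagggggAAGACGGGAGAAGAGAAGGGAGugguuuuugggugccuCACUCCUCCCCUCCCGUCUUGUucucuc
Mir675: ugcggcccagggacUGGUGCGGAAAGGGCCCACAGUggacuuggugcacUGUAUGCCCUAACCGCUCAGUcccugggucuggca

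Each miRNA was read by probes that pair with its 3′ end and differ in length by single bases. miR-483-3p had 2 probes of 17 and 18 bases with 8 spots each, and the other 3 miRNAs had 4 probes each with 4 spots per probe. Per the file headers the probes lie on rn4, at chr1:202910658-202910675 for miR-483-3p, chr1:202910626-202910637 for miR-483-5p, chr1:202824556-202824571 for miR-675-3p and chr1:202824526-202824537 for miR-675-5p. For all but miR-483-3p the span given is 1 base shorter than the longest probe. Both probes of miR-483-3p and the longest probes of miR-483-5p and miR-675-3p are shown, since they carried most of the values below. A capital marks the base that the longer miR-483-3p probe adds:
miR-483-3p, 17 bases: acaagacgggaggggag
miR-483-3p, 18 bases: acaagacgggaggggagG
miR-483-5p, 13 bases: ctcccttctcttc
miR-675-3p, 17 bases: actgagcggttagggca
No probe was the full complement of any other mature miRNA in the table. The longer miR-483-3p probe shared a run of 10 bases (aagacgggag, read as DNA) with miR-483-5p, the arm that faces miR-483-3p in the hairpin.

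All 8 arrays lay on 1 slide, and none of the 12128 rat miRNA spots per array was saturated. The arrays detected up to 156 miRNAs. A probe counted as detected when its total signal, an intensity on a linear scale, was more than 3 times the error that the image software gave it, and a miRNA was detected when any of its probes was. Added up over detected miRNAs, the signal was 21075 to 37357 on the sham arrays and 16787 to 19464 on the TULP arrays, a difference that quantile normalization between arrays removes. The 4 miRNAs were measured close to the limit of the array. Of their 112 probe readings (14 probes on 8 arrays), 22 passed the limit of 3 errors.

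miR-483-3p was the miRNA of the 4 detected most often, on 3 of 4 sham arrays and 4 of 4 TULP arrays. Its 18-base probe had a total signal of 4.68, 4.06, 3.71 and 4.70 on sham replicates 1 to 4 and of 5.62, 5.52, 6.08 and 5.72 on TULP replicates 1 to 4. All 4 TULP arrays lay above all 4 sham arrays. The share of all probes with such a separation was not counted, so nothing is read from it. The mean was 4.29 in the sham group and 5.74 in the TULP group, a difference of 1.45 ± 0.27 (SE, n = 4 and 4) or a ratio of 1.34. The software's own error for this probe was 1.21 to 1.37 on the sham arrays and 1.38 to 1.53 on the TULP arrays. It was about as large as the difference between the groups. Divided by this error, the signal was 2.97 to 3.84 in the sham and 3.69 to 4.13 in the TULP group, so the groups overlapped.

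The 17-base probe, which lacks a single base of the longer one, gave another picture. Its total signal was 4.00, 2.64, 2.65 and 3.21 after sham surgery and 2.90, 2.67, 4.21 and 4.78 after TULP. TULP replicates 3 and 4 lay above every sham array and TULP replicates 1 and 2 lay among them, so the groups overlapped. The difference was 0.51 ± 0.60 (SE), within the spread between arrays.

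**Figure D1:**
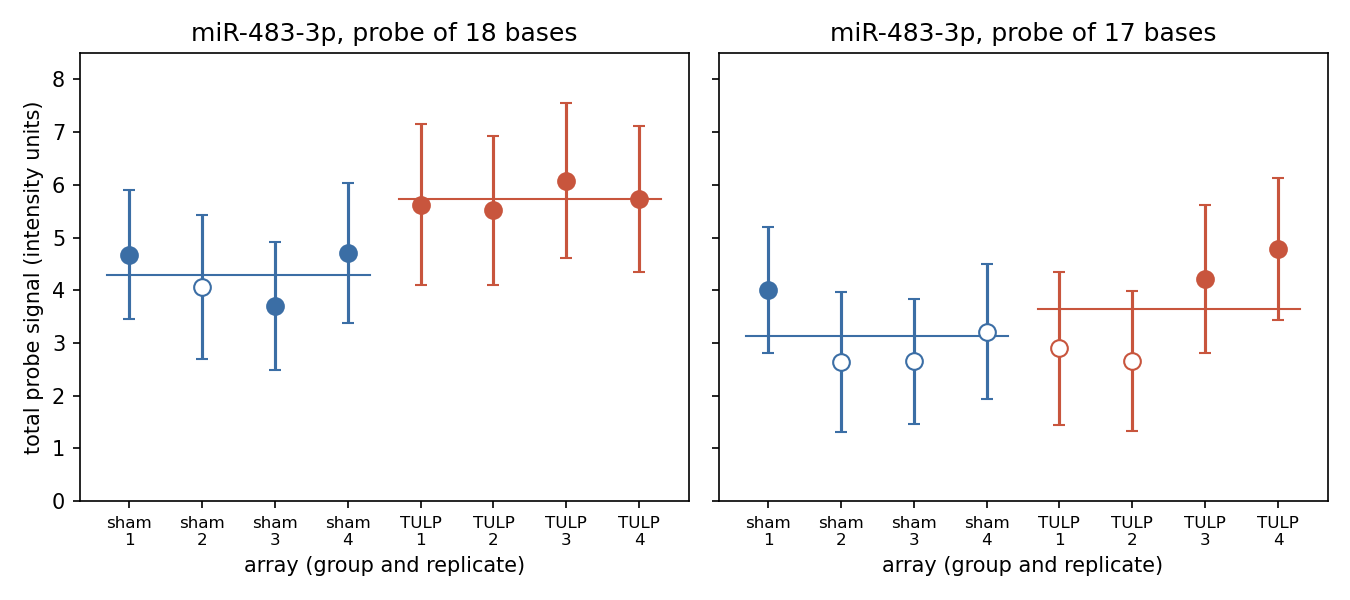
Total signal (intensity units, linear axis) of the 18-base and the 17-base probe of miR-483-3p on each sham (blue) and TULP (red) array. Bars are the error given by the image software, horizontal lines are group means, and open circles did not pass 3 errors. On the 18-base probe the sham arrays lie between 3.71 and 4.70 and the TULP arrays between 5.52 and 6.08, while on the 17-base probe the groups overlap. The share of all probes separated in this way was not counted.

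The signal of miR-483-3p as a whole depended on how many of its probes passed. The 18-base probe passed on 7 arrays (3 sham and 4 TULP) and the 17-base probe on 3 (sham replicate 1 and TULP replicates 3 and 4). The signal summed over passing probes was 8.67, 0.1, 3.71 and 4.70 in the sham group, where 0.1 stands for no passing probe, and 5.62, 5.52, 10.3 and 10.5 after TULP. The 4 arrays with 1 passing probe lay at 3.71 to 5.62 and the 3 arrays with both at 8.67 to 10.5. On sham replicate 2, the array without detection, the 18-base probe reached 2.97 times its error, and on sham replicate 3, which counted as detected, 3.06 times. The step from no signal to a signal thus fell between readings of 4.06 and 3.71, the undetected one being the higher.

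Summed over both probes whether or not they passed, miR-483-3p had 8.67, 6.70, 6.36 and 7.91 in replicates 1 to 4 of the sham group, against 8.52, 8.18, 10.3 and 10.5 in those of the TULP group. Sham replicate 1 lay above TULP replicates 1 and 2, and the other 3 sham arrays lay below every TULP array. The means were 7.41 and 9.38, and the difference of 1.96 ± 0.80 (SE) was a ratio of 1.27.

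**Figure D2:**
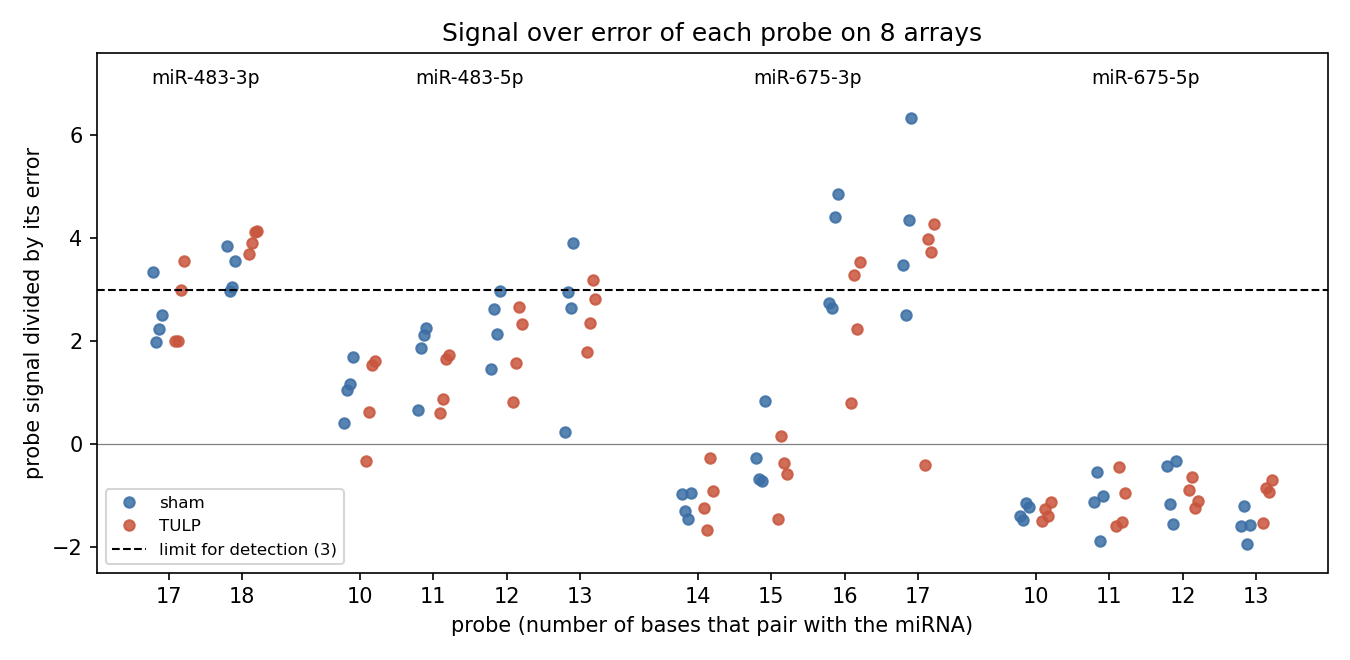
Total signal of each probe divided by its error (no unit) on 4 sham (blue) and 4 TULP (red) arrays, with probes ordered by length within each miRNA and the limit of 3 as a dashed line. The 18-base probe of miR-483-3p passed on 7 arrays and the 17-base probe of miR-675-3p on 6, and no reading of miR-675-5p passed.

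After quantile normalization, with signals below a floor of 0.96 (log2) raised to it, miR-483-3p was 2.86, 0.96, 1.93 and 1.60 in replicates 1 to 4 of the sham group, against 2.72, 2.50, 3.56 and 3.66 in those of the TULP group, all on the log2 scale. The sham mean was 1.84 ± 0.79 (SD, n = 4) and the TULP mean 3.11 ± 0.58 (SD, n = 4). The log2 difference was 1.27 ± 0.45 (SE from limma), and the groups overlapped through sham replicate 1. Across the 151 miRNAs detected on at least 4 arrays, 14 (9.27%) were called different, and 8 (5.30%) called higher in the TULP group, at a Benjamini-Hochberg adjusted p under 0.05 in limma and more than 2-fold, and the groups did not overlap for 44 (29.1%). Neither miR-483-3p nor miR-675-3p, the 2 of the 4 miRNAs that could be tested, was among the 14 called or the 44 without overlap. Since the choice of members used this contrast, nothing is read from that count.

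The size of the miR-483-3p difference varied with the processing. Without the limit of 3 errors, the quantile normalized sums of both probes were 2.70 to 3.02 in the sham group and 3.08 to 3.58 in the TULP group, on the log2 scale. The groups no longer overlapped and the difference fell to 0.53 ± 0.14 (SE). The share of all tested miRNAs without overlap in this setting was not counted, so nothing is read from the separation. The same sums with no normalization gave 0.34 ± 0.21 (SE), and the passing probes with no normalization gave 0.85 ± 0.42 (SE). Quantile normalization sets each difference against the rest of the miRNAs measured on these arrays. Scaled to the labelling spike-ins, RNAs added to each sample in fixed amount, the miR-483-3p difference was 0.63 while the median over all tested miRNAs was -0.78. Left without a floor, the detected-probe signal gave 2.34 ± 1.31 (SE). The difference was above 0 under each of the 26 alternatives run, at 0.059 to 2.34. They re-use the same arrays, and 4 of them leave the estimate as it is by construction. Nothing is therefore read from the shared sign. Of the 26 alternatives, miR-483-3p was tested under 23 and called under 1, without sham replicate 1, where the difference was 1.66. The arrays stood in 2 slide rows, with sham replicate 4 and TULP replicates 1, 2 and 3 in the first row. Within the first row the log2 difference was 1.33 and within the other row 1.74, each with 1 array on one side.

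**Figure D3:**
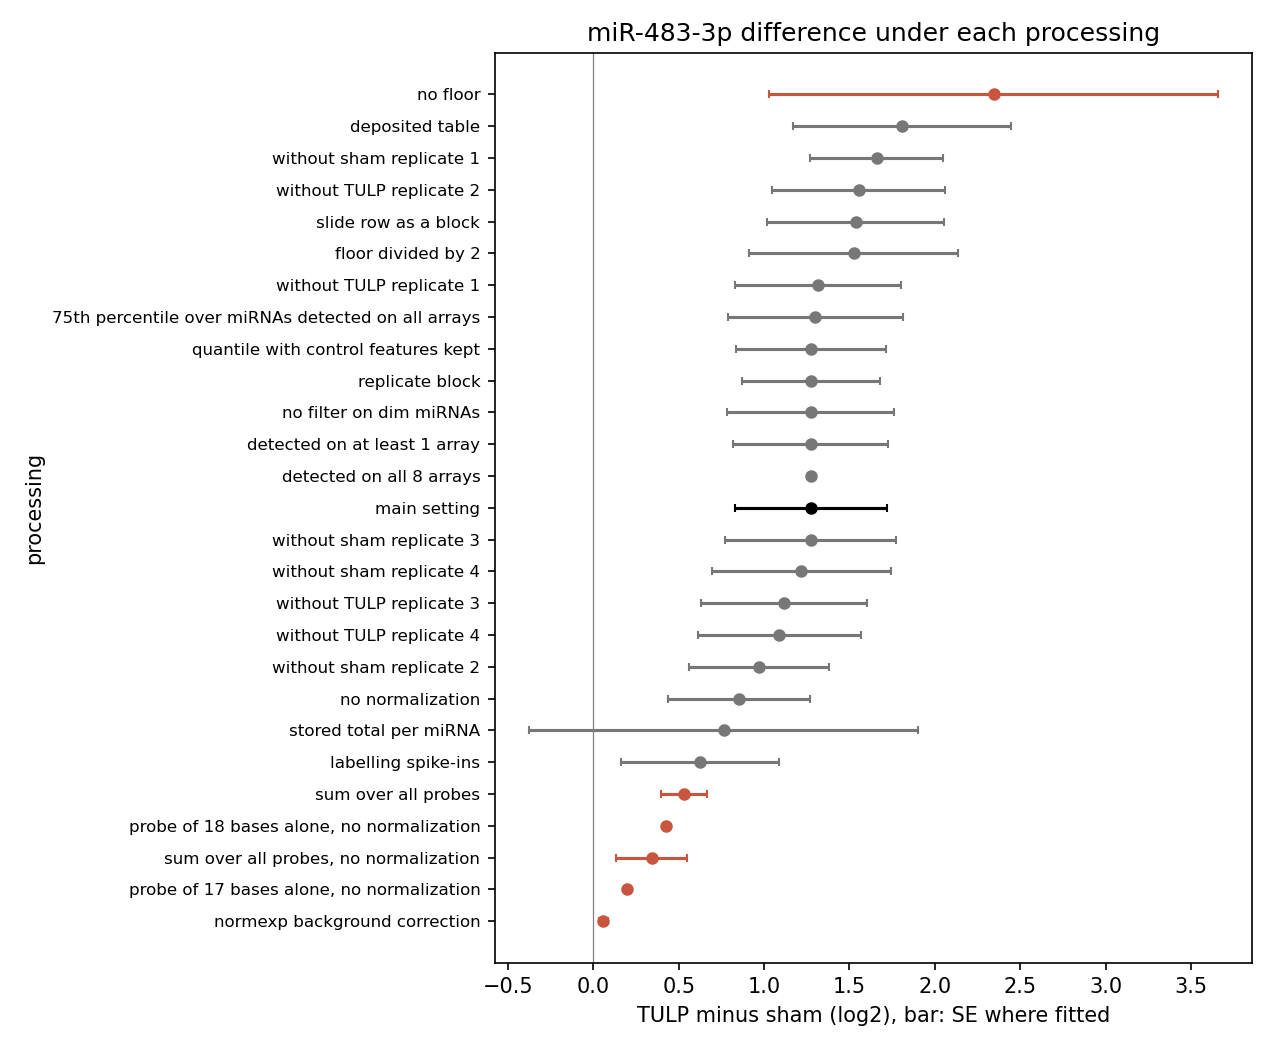
TULP minus sham difference of miR-483-3p (log2) under the main setting (black) and each alternative, with the SE as a bar where the fit gave one. Red points moved by more than the spread between replicates. All points lie above 0, from 0.059 with normexp background correction to 2.34 without a floor. Normexp was run with an offset of 50 added to every spot, which presses log2 differences of dim miRNAs towards 0.

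Spot brightness, which no normalization touches, was also set against the negative control spots of each array, whose median was 2.37 to 3.26 and whose 95th percentile was 5.84 to 6.91. Of the 128 miR-483-3p spots, 85 (66.4%) lay above the 95th percentile of their own array, 40 of 64 on the sham arrays and 45 of 64 on the TULP arrays. The median miR-483-3p spot was 8.41, 6.42, 6.09 and 8.61 in replicates 1 to 4 of the sham group, against 8.67, 5.75, 8.80 and 9.99 in those of the TULP group. It exceeded the 95th percentile on sham replicates 1 and 4 and on TULP replicates 1, 3 and 4, so brightness above the controls occurred in both groups. It exceeded the 99th percentile on 2 sham and 2 TULP arrays. The mean spot exceeded the 95th percentile on 2 sham and 4 TULP arrays. The software's stricter call, well above background on most spots of a probe, was met on 0 of 8 arrays.

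**Figure D4:**
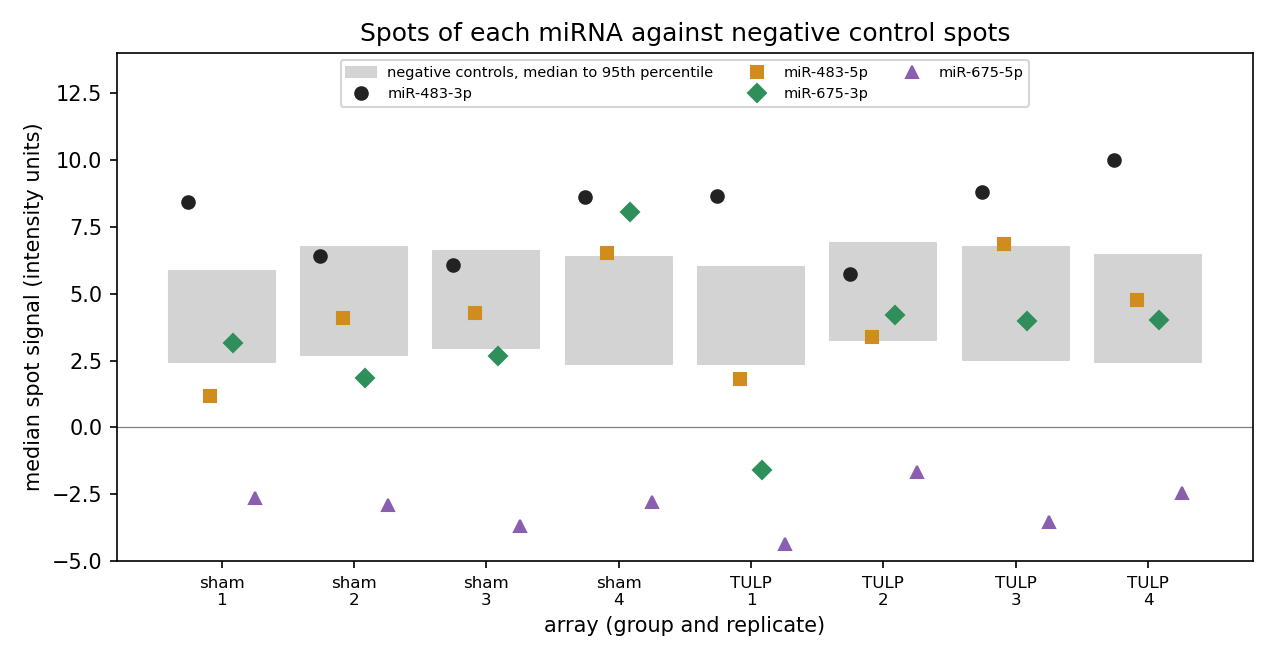
Median spot signal (intensity units, linear axis) of each miRNA on each array, with the negative control spots as grey bars from their median to their 95th percentile. miR-483-3p lies above the bar on 5 arrays, miR-483-5p on 2 and miR-675-3p on 1, and miR-675-5p lies below 0 on all 8.

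miR-483-5p, the other arm of the Igf2 hairpin, was detected on 1 sham array (replicate 4) and 1 TULP array (replicate 3), each time through its 13-base probe alone. Summed over its 4 probes, it had 1.57, 5.73, 4.77 and 7.04 in replicates 1 to 4 of the sham group, against 2.07, 3.59, 6.26 and 5.51 in those of the TULP group. Low and high arrays occurred in both groups, and the difference of -0.42 ± 1.50 (SE) was within the spread between arrays. It was detected on too few arrays to be tested, and after normalization 7 of 8 arrays stood on the floor of 0.96 and TULP replicate 3 at 1.37, on the log2 scale. Of its 128 spots, 32 (25%) were above the 95th percentile of the negative controls. The 2 arms did not lie high on the same arrays throughout, since sham replicate 1 had the highest miR-483-3p sum of its group and the lowest miR-483-5p sum of all 8 arrays.

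miR-675-3p, an arm of the H19 hairpin, was detected on sham replicates 1, 3 and 4 and TULP replicates 2, 3 and 4. Its 17-base probe had a total signal of 2.09, 1.69, 2.78 and 5.06 in replicates 1 to 4 of the sham group, against -0.29, 2.83, 2.71 and 2.99 in those of the TULP group. Sham replicate 4 was highest and TULP replicate 1 lowest, and the remaining arrays of both groups were interleaved. On TULP replicate 1 the lowest of this probe's 4 spots read -15.99, while its median spot was 2.69. That reading also enters the sum below. The 17-base probe passed the limit on 6 arrays and the 16-base probe on 4, and the 14-base and 15-base probes passed on none, with totals between -1.09 and 0.52. The sum over all 4 probes was 2.99, 2.18, 4.39 and 8.42 in the sham group and -1.64, 4.12, 3.82 and 4.43 in the TULP group, a difference of -1.81 ± 2.00 (SE).

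On the normalized log2 scale miR-675-3p was 0.96, 0.96, 2.47 and 2.82 in replicates 1 to 4 of the sham group, against 0.96, 2.28, 1.60 and 2.47 in those of the TULP group. The groups covered nearly the same range, with means of 1.80 ± 0.98 (SD, n = 4) and 1.83 ± 0.69 (SD, n = 4). The difference was 0.02 ± 0.54 (SE from limma). It was -1.20 within the first slide row and 1.01 within the other. Each row had 1 array on one side, so nothing is read from the change of sign. Of the 128 miR-675-3p spots, 46 (35.9%) were above the 95th percentile of the negative controls, 26 on sham and 20 on TULP arrays.

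miR-675-5p, the other arm of the H19 hairpin, was not detected on any array. All 32 of its probe totals were below 0, the sum over its probes was -3.90 to -2.10, and 0 of its 128 spots lay above the 95th percentile of the negative controls. Its level was not measurable here in either group, which does not show that it was absent.

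**Figure D5:**
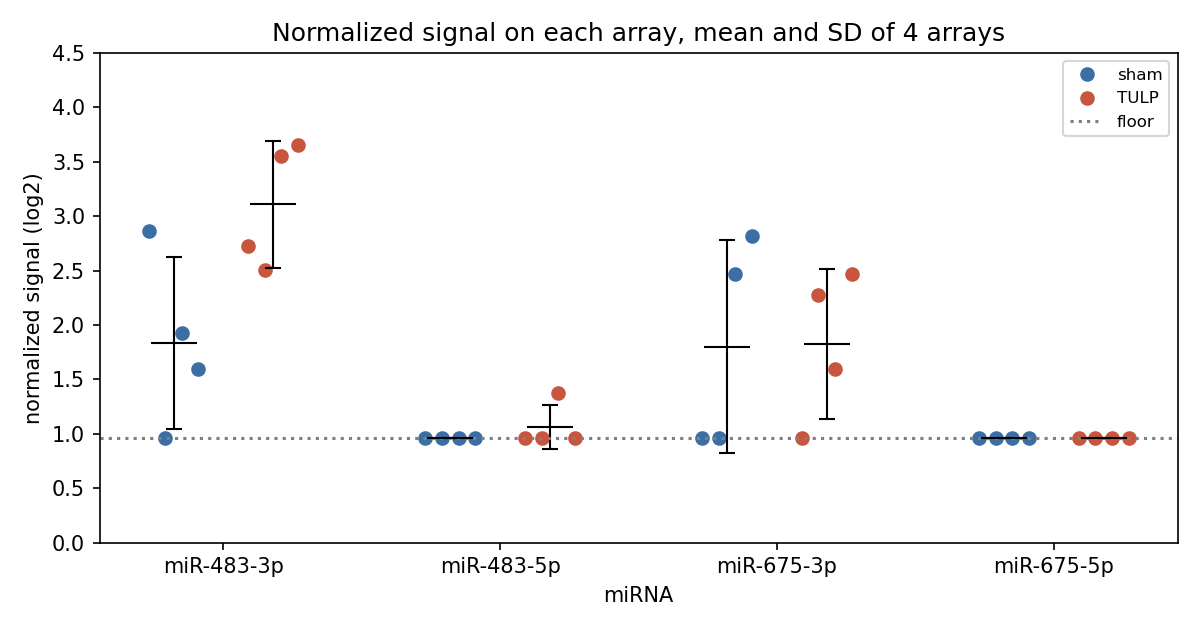
Normalized signal (log2) of the 4 miRNAs on each sham (blue) and TULP (red) array, with the mean and SD of 4 arrays in black and the floor as a dotted line. miR-483-3p has a mean of 1.84 in the sham group and 3.11 in the TULP group with overlapping arrays, and miR-675-3p has means of 1.80 and 1.83.

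The tested miRNAs whose pattern over the 8 arrays was nearest to that of miR-483-3p were miR-3473, miR-34a-5p, miR-1224, miR-214-3p and miR-3085. Likeness was the root mean square difference of log2 values after each miRNA's own mean was subtracted. It was 0.47 for miR-3473 and 0.63 to 0.67 for the others, with a median of 1.02 over all tested miRNAs. A miRNA with the same value on every array would score 0.88. All 5 were detected on all 8 arrays. Their groups did not overlap, beside 29.1% of all tested miRNAs, from which nothing is read since they were picked for likeness to a miRNA with higher TULP values. miR-3473, the nearest, was called, with a mean of 5.00 in the sham and 6.10 in the TULP group and a log2 difference of 1.11 ± 0.19 (SE). The neighbours of miR-675-3p were miR-128-3p (0.44), the skeletal muscle miRNA miR-206-3p (0.50), miR-532-5p (0.55), miR-193a-3p (0.56) and miR-379-5p (0.56), against a median of 0.82. The groups of each of these 5 overlapped. miR-532-5p was detected on 5 arrays and miR-379-5p, a miRNA of the imprinted Dlk1-Dio3 cluster, on 4. A miRNA with the same value on every array would score 0.73 here. The part of values on the floor in this likeness was not tested.

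miRNAs of other imprinted loci gave a background for the Igf2 and H19 pair. The array held 97 of them, 92 from the maternally expressed Dlk1-Dio3 cluster, 4 from the Gnas locus and miR-335 of Mest. Of the 97, 16 were detected on at least 1 array and 11 were tested in limma, 0 of which were called beside 9.27% of all 151, 1 (miR-494-3p) had an unadjusted p under 0.05, and 0 met the threshold of the methods' t-test. Their log2 differences were above 0 for 8 and below 0 for 3, with a median of 0.17 against -0.02 over all 151, relative to the other miRNAs of the arrays. miR-127-3p, which acts on the placental gene Rtl1, had a normalized log2 signal of 3.02 ± 0.67 (SD, n = 4) after sham surgery and 3.08 ± 0.76 (SD, n = 4) after TULP. The log2 difference of miR-494-3p was 0.75 ± 0.23 (SE), past the adjusted p and under 2-fold, and that of miR-1188-3p was 1.01 ± 0.49 (SE), not past it. At the Gnas locus miR-296-5p was detected on 4 sham and 3 TULP arrays, with a log2 difference of 0.13 ± 0.36 (SE). miR-335 was not detected.

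H19 RNA also binds let-7, a miRNA family that restrains growth genes. Of 19 let-7 and miR-98 entries on the array, 9 were tested in limma and 0 were called beside 9.27% of all 151, 1 had an unadjusted p under 0.05 and 0 met the methods' t-test threshold, with a median log2 difference of -0.01. The highest log2 difference was 0.12 ± 0.09 (SE), for let-7d-5p, and the lowest -0.54 ± 0.09 (SE), for let-7g-5p, the 1 past the adjusted p.

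Among miRNAs of white blood cells, 7 were on the list, 6 were tested and 3 were called, each higher in the TULP group. Across all 151 tested miRNAs, 9.27% were called and 5.30% were called higher. The 3 were miR-223-3p, a myeloid miRNA (log2 difference 2.10), miR-142-3p, a miRNA of blood cells (2.01) and miR-146b-5p, a regulator of inflammatory signalling (2.90). The lymphocyte miRNA miR-150-5p lay the other way, with a log2 difference of -0.59 ± 0.22 (SE) that was not called and groups that did not overlap. miR-155-5p (0.89 ± 0.50, SE) and miR-146a-5p (0.39 ± 0.16, SE) were not called and their groups overlapped, and miR-142-5p was not detected. The summed normalized level of the list was 5.98 to 6.58 in the sham group and 7.30 to 7.98 in the TULP group, on the log2 scale. Their part in the miR-483-3p difference was not tested. In tissue RNA, fewer cells of a type and less RNA per cell cannot be told apart.

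Of the other cell type lists, tested in limma, 0 members were called beside 9.27% of all 151. Of all 151 tested miRNAs, 46 passed the adjusted p. Of 4 tested striated muscle miRNAs, 3 passed the adjusted p and were lower in the TULP group by less than 2-fold: miR-1-3p (-0.74), miR-133a-3p (-0.96) and miR-133b-3p (-0.72), all log2 differences. The other, miR-206-3p, lay the other way at 0.25 ± 0.45 (SE), did not pass, and its groups overlapped. Of 7 tested epithelial miRNAs, 0 passed the adjusted p, 3 had an unadjusted p under 0.05 with lower values in the TULP group, and 2 met the methods' t-test threshold. The 3 were miR-375-3p (-2.03 ± 0.71, SE), miR-200c-3p (-1.46 ± 0.54, SE) and miR-200a-3p (-0.71 ± 0.27, SE), all log2 differences. Of the 7 epithelial log2 differences, 5 were below 0 and 2 above. The 2 were those of miR-200b-3p (0.0006 ± 0.31, SE) and miR-429 (0.012 ± 0.23, SE). Of 2 erythroid miRNAs, miR-486 was lower (-0.79) past the adjusted p, and of 2 smooth muscle miRNAs 0 had an unadjusted p under 0.05. The methods' t-test called 0 striated muscle, erythroid and smooth muscle miRNAs. The summed log2 level of striated muscle miRNAs was 11.98 to 12.47 in the sham and 11.37 to 12.18 in the TULP group, with miR-208a-3p, miR-208b-3p and miR-499-5p undetected. For smooth muscle it was 9.34 to 9.86 and 9.31 to 10.36, for epithelium 8.93 to 9.40 and 8.60 to 9.87, and for erythroid cells 5.96 to 6.63 and 5.11 to 6.32. The neural miRNAs miR-124-3p and miR-9a-5p and the hepatocyte miRNA miR-122-5p were not detected. The smooth muscle miRNAs and 6 of the 8 epithelial miRNAs were detected on all 8 arrays. The exceptions were miR-375-3p, detected on 4 sham arrays and 1 TULP array, and miR-203a-3p, detected on 0 sham arrays and 1 TULP array.

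The total stored by the software for each miRNA was not used as the signal, and the Igf2 pair shows why. On the 4 arrays where a single miR-483-3p probe had passed, its stored total was 42.5 to 62.3, above the sum of both of its probes. Where both had passed, on sham replicate 1 and TULP replicates 3 and 4, the stored total was that sum. The stored total of miR-483-5p was 64.9 on sham replicate 4 and 12.5 on TULP replicate 3. On both arrays it equalled, to within 5e-05, the total of its passing probe (2.62 and 2.24) plus the stored total of miR-483-3p (62.3 and 10.3). In stored totals on the linear scale, the group means of miR-483-3p were 30.3 in the sham and 27.5 in the TULP group. The sign was thus reversed there, while the normalized log2 difference of the stored totals was 0.76 ± 1.14 (SE).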

How the data were processed

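Total RNA of 8 prostatic urethras was labelled with Cy3 and hybridized to a rat miRNA array. The deposited scanner files, made with Agilent Feature Extraction 10.7.1.1, give background-subtracted intensity per spot, probe and miRNA, not normalized between arrays. The authors also deposited a table of quantile normalized log2 values, used as an alternative. Here the signal of a miRNA was the sum of its probe totals above 3 times their error (0.1 where none was), quantile normalized over all rat miRNAs without control features, raised to a floor of 1.94 and converted to log2. This detection rule differed from the files' calls in 0 cases. miRNAs detected on at least 4 of 8 arrays entered limma 3.58.1 (R 4.3.3) with group as the single term, after the script had been tested on simulated data. Called means a Benjamini-Hochberg adjusted p under 0.05 and more than 2-fold. Group means and figures were made with Python 3.11.15. The number of arrays, 4 per group, limits the precision, and each array is 1 rat.

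The members and lists were chosen with earlier results of these data known. Named were the 4 miRNAs, the 5 tested miRNAs nearest in pattern to each that passed the filter, and members of lists of imprinted-locus, let-7 and cell type miRNAs. miRNA names are those of the array, sequences are from RefSeq (GRCr8). Alternatives varied the probe sum, background correction (normexp with an offset of 50), normalization, floor, filter, blocks and arrays left out. Some were added after the data had been seen: both probes summed or each taken alone with no normalization, and all alternatives for miR-675-3p.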

Additional observations from a re-analysis of the deposited data

Results flagged for a closer look

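Within groups of 4 arrays, 44 sets of values of the 4 miRNAs (normalized signals, probe sums and single probe totals, each in each group) were examined for an array far from the rest, by Dixon's ratio at its 95% critical value. This rule marks about 5% of independent sets by chance, or 2.2 of 44, and it marked 3. The sets were not independent, since the sums contain the single probes. Sets with every array on the floor could not be marked. Nothing is therefore read from 3 against 2.2. For miR-675-3p in the TULP group, the sum over all probes was -1.64 on replicate 1 against 3.82 to 4.43 on the others. Its 17-base probe read -0.29 on the same array against 2.71 to 2.99. There the lowest of the probe's 4 spots read -15.99, while its median spot was 2.69. For miR-483-5p in the TULP group, the normalized signal was 1.37 on replicate 3 and on the floor of 0.96 on the others, so that here any detected value stands apart.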

How the results depend on the processing

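The miR-483-3p log2 difference was above 0 under 26 of 26 alternatives, which re-use the same arrays, so nothing is read from the shared sign. The filters on detection and the replicate block, 4 in all, leave this estimate as it is by construction, and of the other 22 it stayed within the spread between replicates (1 SD) under 16. It moved to 0.53 with all probes summed, 0.059 with normexp, 2.34 with no floor, and, in alternatives added after seeing the data, 0.34 with all probes summed and no normalization, 0.20 with the 17-base probe alone and 0.43 with the 18-base probe alone. It was 0.97 to 1.66 with each array left out. miR-483-5p moved from 0.10 to -0.55 with stored totals, -0.10 with all probes summed, -0.056 without normalization, 0.80 in the deposited table, 0.35 with the floor divided by 2, 0.49 without a floor and -0.14 with all probes summed and no normalization, and was 0 to 0.17 with an array left out. The miR-483-5p spread between replicates was 0.15 (SD), with all but 1 of its arrays on the floor, so small changes counted as moved. miR-675-3p lay between -0.28 and 0.67 in 24 alternatives, within its spread. The same 4 alternatives leave this estimate as it is by construction. The number of miRNAs called, 14, became 1 with normexp, 34 without normalization (5 higher, 29 lower), 53 with spike-in scaling (5 higher, 48 lower), 8 with detection on all 8 arrays, 4 with no filter, 29 with all probes summed and no normalization, and 9 to 21 with an array left out (9 without TULP replicate 3). Normexp added an offset of 50 to every spot, which presses log2 differences of dim miRNAs towards 0. Its difference of 0.059 and its 1 call do not measure background correction alone. Spike-in scaling shifted the median tested miRNA by -0.78, and the miR-483-3p difference was then 0.63. The methods' t-test gave 18 calls at its threshold and 12 after Benjamini-Hochberg adjustment. By the stricter background call, miR-483-3p was detected on 0 arrays in place of 7, miR-483-5p on 0 in place of 2 and miR-675-3p on 1 in place of 6. Median miR-483-5p spots exceeded the negative controls on 2 arrays at the 95th percentile, 0 at the 99th, and 1 by the mean. The replicate numbers name different rats, so they do not pair the samples. After each miRNA's group mean was subtracted, same-numbered arrays correlated at 0.13, -0.10, 0.27 and -0.10. The same-numbered TULP array correlated highest for sham replicates 1 and 3, and did not for 2 and 4. With a replicate block 11 miRNAs were called and the miR-483-3p difference was 1.27. Scaling to the 75th percentile over all miRNAs could not be run, since that percentile was 0.1 on every array. The causes of these changes were not tested. Signals near the background limit all 4 miRNAs.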
